A study of Mus musculus with 6 samples.

Results

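Txnip, its relatives among the alpha-arrestins, the thioredoxins and their reductases, and the Mondo and Mlx transcription factors were followed in cultured mouse neural stem and progenitor cells (NSPCs). The set holds 10 genes (Txnip, Arrdc3, Arrdc4, Txn1, Txn2, Txnrd2, Txnrd3, Mlx, Mlxip and Mlxipl) of the 17254 genes seen in any library. All 10 were found, and 9 had a mean FPKM (fragments scaled by transcript length and library size) of at least 1, the minimum for testing. The genes were chosen by family and selected on their measured expression in these same libraries, with the differences between PQ, NAC and control in view. Their values in the 3 comparisons are therefore a description, and no p-value is given for any of them.

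The study exposed NSPCs for 48 h to paraquat (PQ), which cycles with oxygen and yields superoxide, or to the thiol antioxidant N-acetylcysteine (NAC), and sequenced their RNA beside untreated controls. Each group has 2 libraries. The cells were an immortalized culture that lacks Ink/Arf, derived from neonatal subventricular zone; by the study's methods it is not a pure cell type and includes oligodendroglial as well as neuronal progenitors. They grew in N2 medium with EGF and bFGF. PQ was used at 5 µM and NAC at 5 mM. The genotype label, Ink/Ark knockout, and the strain, C57BL/6, stand on control library 1 and PQ library 1 only. Those libraries were made with NucleoSpin extraction and an Illumina protocol, whereas the labels of control library 2, PQ library 2 and both NAC libraries name TRIZOL extraction and BGISEQ-500 sequencing. Library numbers follow the order of deposit and mark no shared culture; in control and PQ they coincide with the labelled protocol. The total expected count was 9849392 and 10040827 in control, 10388731 and 9680436 in PQ, and 10698241 and 9907726 in NAC. The labels do not say that the libraries of a group came from separate cultures, so p-values measure only the spread between these libraries.

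Thioredoxins reduce disulfides in other proteins and are recharged by thioredoxin reductases with electrons from NADPH. Txnip is an alpha-arrestin that binds reduced thioredoxin and blocks its active site, and it also limits glucose uptake by drawing glucose transporters into the cell. Its transcription follows glucose through Mondo factors (Mlxip, also called MondoA, and Mlxipl, also called ChREBP), which bind carbohydrate response elements as partners of Mlx, and Arrdc4 is regulated by the same factors.

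The label of the cells was compared with marker genes. Of 10 neural stem cell markers, 9 had a mean FPKM of at least 1, led by Vim at 2073 FPKM. The remaining marker, Prom1, had at most 4 counts in a library. Among 7 neuronal markers only Map2 had a mean FPKM of at least 1 over all libraries, and Rbfox3 had 0 counts in every library. Of 7 microglial markers, Aif1, Ptprc, Csf1r and Tmem119 had at most 3 counts in any library, whereas P2ry12 had 30 to 97 counts and Cx3cr1 19.83 to 33.94. Cdkn2a, the gene at the Ink/Arf locus, was counted in every library, with 137 and 162 expected counts in control, 120 and 130 in PQ, and 130 and 131 in NAC. Counts per gene do not show which exons the reads came from, so they do not check the knockout label.

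The sequences upstream of Txnip, Arrdc4 and Mlx are shown because these genes differed between groups and each window holds letters that glucose-responsive or stress-responsive factors are known to bind. All 10 genes matched the RefSeq promoter table (build GRCm38.p6), with 13 annotated starts. The labels name mm10 for the BGISEQ-500 libraries and mm9 for control library 1 and PQ library 1. The 250 bases before each start were searched on both strands for 4 motifs: CACGTG (E-box); a relaxed carbohydrate response element, made of CACGNG, any 5 bases and CACGNG; TGACNNNGC (core of the antioxidant response element); and GTAAACA (forkhead). The windows below run 5′ to 3′ on the gene's strand, and capitals mark every match.
Txnip, chr3:96557707-96557956, plus strand: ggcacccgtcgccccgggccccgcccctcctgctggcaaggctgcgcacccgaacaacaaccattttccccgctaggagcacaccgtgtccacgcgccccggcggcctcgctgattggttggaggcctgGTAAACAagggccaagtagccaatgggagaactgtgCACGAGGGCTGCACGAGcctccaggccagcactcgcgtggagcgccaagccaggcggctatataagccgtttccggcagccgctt
Arrdc4, chr7:68749239-68749488, minus strand: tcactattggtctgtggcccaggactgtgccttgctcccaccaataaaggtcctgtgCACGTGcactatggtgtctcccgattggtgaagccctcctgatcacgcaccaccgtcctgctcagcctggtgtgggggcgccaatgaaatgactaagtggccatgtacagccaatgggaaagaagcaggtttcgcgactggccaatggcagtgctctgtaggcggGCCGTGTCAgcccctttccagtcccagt
Mlx, chr11:101087040-101087289, plus strand: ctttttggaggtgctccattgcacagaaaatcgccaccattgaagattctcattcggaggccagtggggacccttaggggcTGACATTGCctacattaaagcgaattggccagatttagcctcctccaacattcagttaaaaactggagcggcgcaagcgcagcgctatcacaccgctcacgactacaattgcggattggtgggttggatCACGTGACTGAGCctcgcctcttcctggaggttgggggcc
Counted back from the start, the window of Txnip holds the carbohydrate response element from -85 to -69 and the forkhead motif from -121 to -115. That of Arrdc4 holds an E-box from -193 to -188 and, on the opposite strand, an antioxidant response element core from -28 to -20. The window of Mlx holds an E-box from -40 to -35 and antioxidant response element cores from -169 to -161 and from -36 to -28, the latter overlapping the E-box. Mlxipl has an E-box from -98 to -93 at its other start, and the windows of Arrdc3, Txn1, Txn2, Txnrd2, Txnrd3 and Mlxip hold none of these letters. Of all 32851 windows in the table, 0.0457% hold the relaxed carbohydrate response element, 6.02% the E-box, 10.2% the antioxidant response element core and 3.17% the forkhead motif. A match describes the letters and does not show that a factor binds there.

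**Figure D1:**
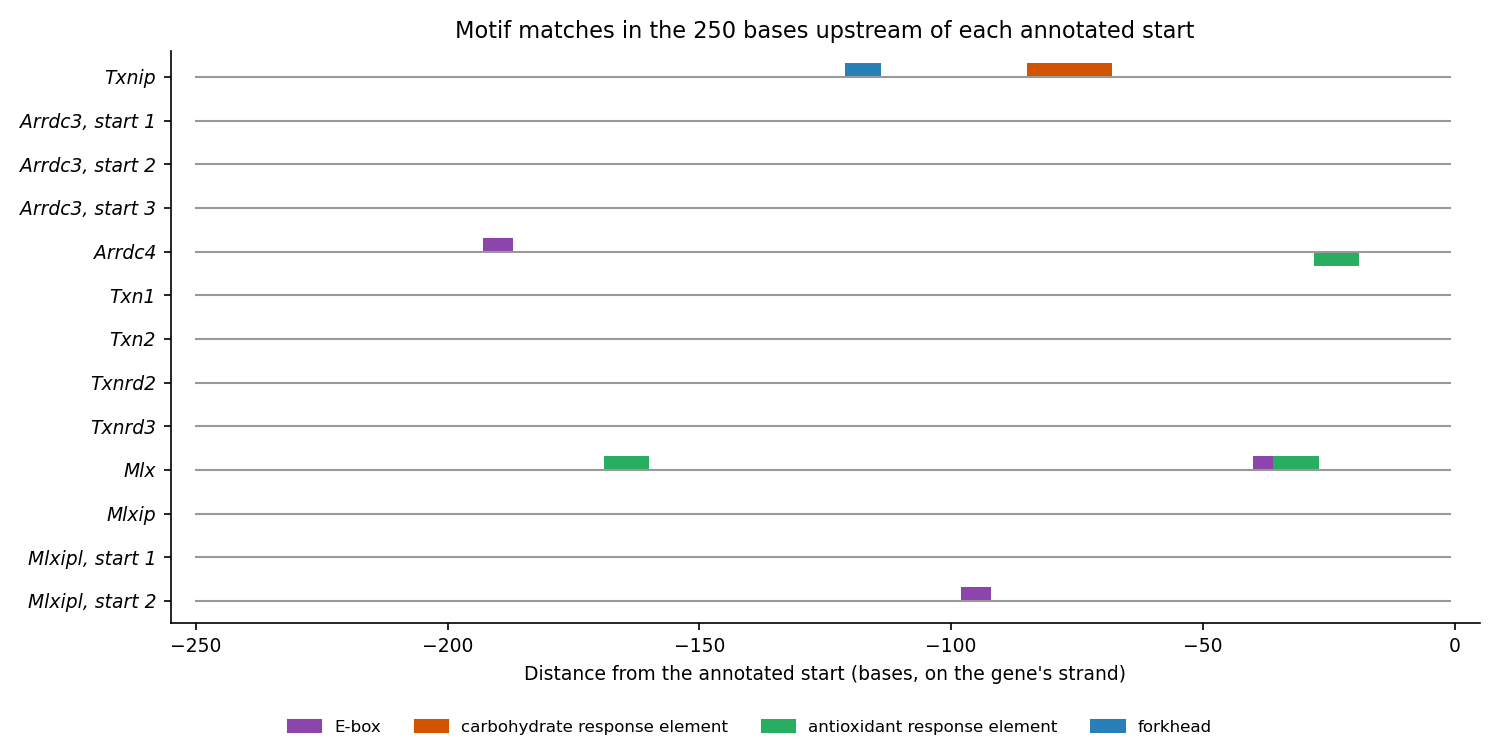
Motif matches in the 250 bases upstream of the 13 annotated starts of the 10 genes, drawn by distance from the start in bases. Boxes above a line are matches on the gene's strand and boxes below it on the opposite strand; the carbohydrate response element appears only in the window of Txnip.

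Txnip (NCBI gene 56338) was low in both PQ libraries. Its expression, in counts scaled to library size with edgeR's TMM factors (CPM), was 19.3 and 12.9 in control, 2.101 and 2.297 in PQ, and 19.5 and 21.1 in NAC. PQ lay below every other library, and NAC lay just above control without overlap. The PQ values rest on 22 expected counts in each library (exact 95% Poisson interval 13.8 to 33.3, covering counting error only), against 128 to 213 in the others. The group means were 16.1 ± 4.47 in control, 2.199 ± 0.139 in PQ and 20.3 ± 1.154 in NAC (CPM, SD, n = 2). Txnip fell 7.29-fold in PQ against control, a log2 fold change of -2.87 (standard error 0.24). That value ranged from -3.13 to -2.55 with a library left out and was -1.87 with limma on log2(FPKM + 1). It was lower by 9.20-fold in PQ than in NAC, at -3.20 (standard error 0.24). NAC against control gave 0.34 (standard error 0.17), short of the threshold. All 11717 tested genes were ordered by log2 fold change. Txnip had rank 15 from the lowest in PQ against control and rank 7 in PQ against NAC. Txnip was chosen with these differences in view and reached the minimum for testing through control and NAC, so these ranks test nothing. The NucleoSpin libraries gave a log2 difference of -3.08 between PQ and control, and the BGISEQ-500 libraries -2.40. Within the BGISEQ-500 libraries the NAC libraries lay 0.59 and 0.70 above control. Control library 2 lay -0.57 from control library 1. The value for NAC against control was 0.65, past the threshold, without control library 1, 0.08 without control library 2 and 0.57 with the protocol as a covariate. In bulk RNA, fewer cells that express a gene and less RNA per cell cannot be told apart.

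Both other alpha-arrestins differed less from control in PQ than Txnip did, and neither lay past the threshold there. Arrdc3 (NCBI gene 105171), an arrestin that brings NEDD4-type ubiquitin ligases to membrane receptors, had 85.4 and 100 CPM in control, 79.3 and 114 in PQ, and 62.5 and 70.1 in NAC. Its NAC libraries were the lowest, while the PQ libraries lay on either side of control. Arrdc3 was lower in NAC than in control by a log2 fold change of -0.49 (standard error 0.14) and higher in PQ than in NAC by 0.54 (standard error 0.14), both past the threshold. PQ against control gave 0.05 (standard error 0.14), which turned to -0.06 without control library 1 and -0.23 without PQ library 2. Within the NucleoSpin libraries that difference was -0.11, and within the BGISEQ-500 libraries 0.18. The call in NAC was lost without control library 2 (-0.36) or NAC library 1 (-0.40) and with limma (-0.41 and -0.43), and that of PQ against NAC without PQ library 2 (0.26) or NAC library 1 (0.46). Arrdc4 (NCBI gene 66412), which, like Txnip, lowers glucose uptake, had 29.9 and 26.2 CPM in control, 25.6 and 24.2 in PQ, and 40.4 and 45.6 in NAC. The NAC libraries were the highest, and those of PQ lay just under control. Arrdc4 rose in NAC against control by 0.62 (standard error 0.12), or 1.53-fold, and was lower in PQ than in NAC by -0.79 (standard error 0.13) on the log2 scale. In PQ against control its log2 fold change was -0.17 (standard error 0.13), with -0.22 in the NucleoSpin and -0.11 in the BGISEQ-500 libraries, and it ran from -0.26 to -0.07 with a library left out. Within the BGISEQ-500 libraries, NAC lay 0.62 and 0.80 above control for Arrdc4 and -0.68 and -0.51 from it for Arrdc3. Among the alpha-arrestins of the set, Txnip made up 19.0% and 12.6% of the summed FPKM in control, 2.73% and 2.37% in PQ, and 21.5% and 20.8% in NAC.

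**Figure D2:**
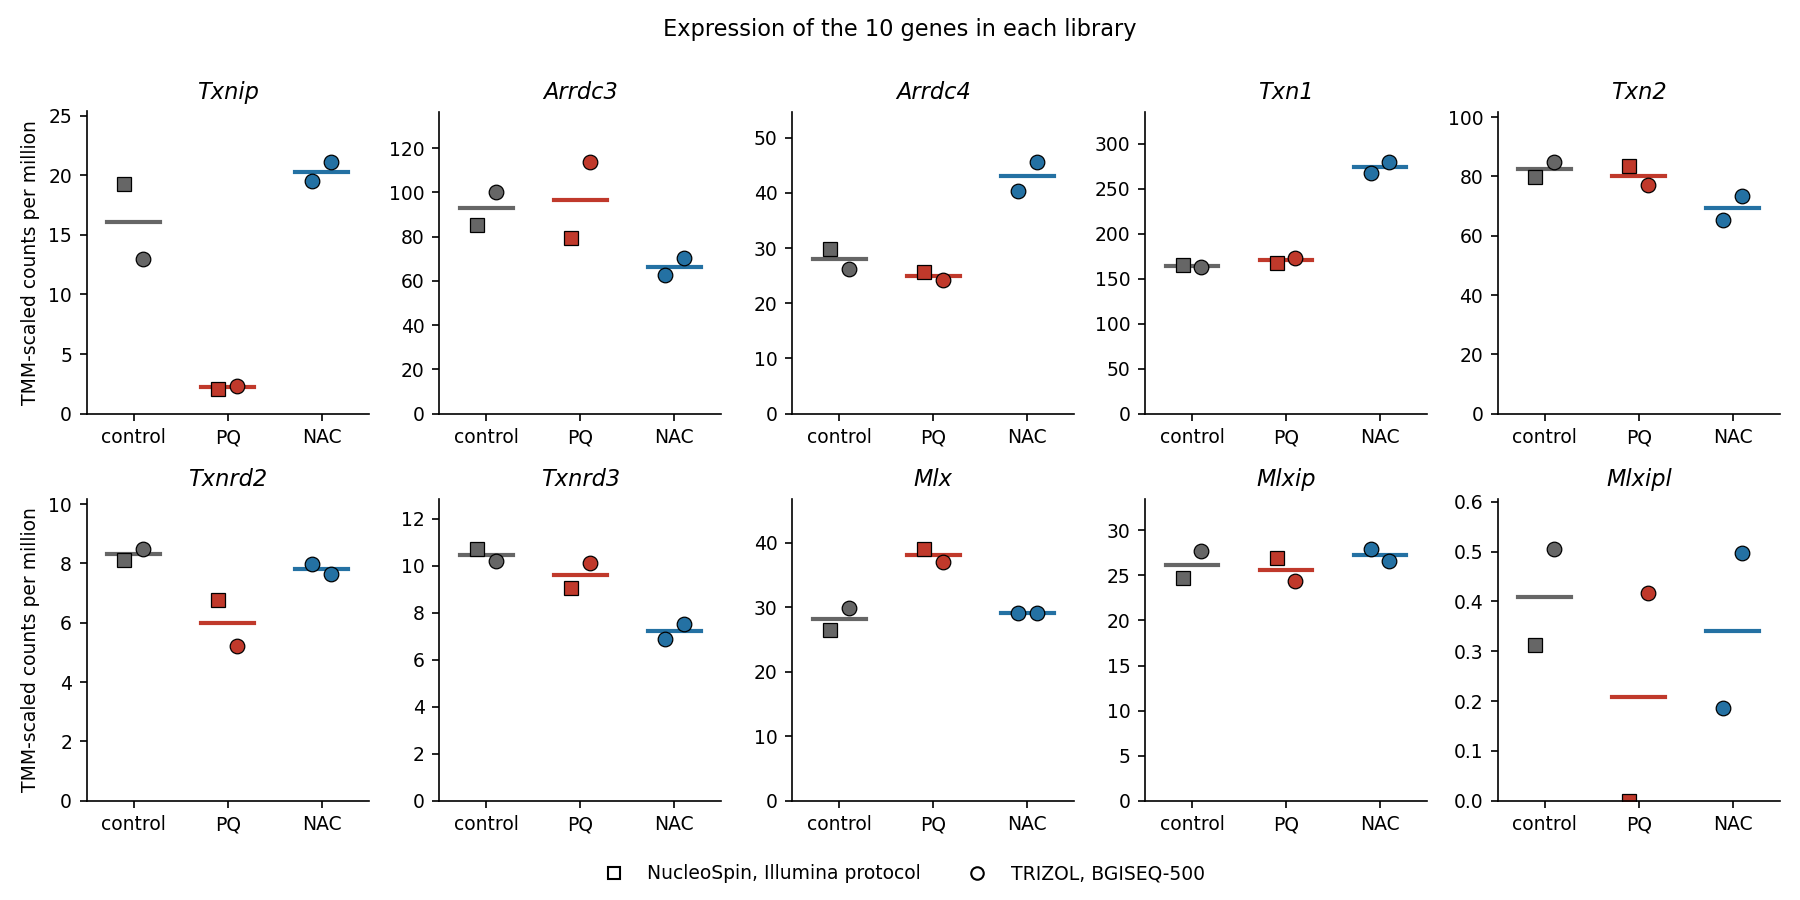
TMM-scaled counts (CPM) of the 10 genes in each of the 6 libraries, with every axis starting at 0; lines are group means of 2 libraries and the shape of a point gives the labelled protocol. Txnip is near 2 CPM in PQ, and Arrdc4 and Txn1 are highest in NAC.

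Txn1 (NCBI gene 22166), the cytosolic thioredoxin that Txnip binds, was high in NAC. It had 166 and 163 CPM in control, 167 and 174 in PQ, and 268 and 280 in NAC. The NAC libraries lay far above the rest, whereas PQ lay just above control. The means were 164 ± 2.21 in control, 170 ± 4.35 in PQ and 274 ± 8.75 in NAC (CPM, SD, n = 2). Txn1 rose 1.67-fold in NAC against control, a log2 fold change of 0.74 (standard error 0.09), and was lower in PQ than in NAC by -0.68 (standard error 0.09). PQ against control gave 0.05 (standard error 0.09), a 95% interval from -0.13 to 0.23, with 0.01 in the NucleoSpin and 0.09 in the BGISEQ-500 libraries, and ran from 0.03 to 0.08 with a library left out. Within the BGISEQ-500 libraries NAC lay 0.72 and 0.78 above control. Txn2 (NCBI gene 56551), the mitochondrial thioredoxin, had 79.8 and 84.9 CPM in control, 83.4 and 77.0 in PQ, and 65.3 and 73.4 in NAC. Its NAC libraries were the lowest, and PQ and control overlapped. Its log2 fold changes were -0.04 in PQ and -0.25 in NAC against control (standard error 0.10 each) and 0.21 in PQ against NAC, none past the threshold. The value in PQ turned to 0.007 without control library 2 and 0.02 without PQ library 2. Without NAC library 1, NAC against control gave -0.17 and PQ against NAC 0.13.

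Marker sums also differed between groups, each set mostly by its most abundant gene, and other genes of a list went the other way. The 10 neural stem cell markers summed to 3725 and 3792 FPKM in control, 4039 and 4050 in PQ, and 3037 and 2965 in NAC. Vim, at 2171 and 2323 FPKM in control and 1362 and 1389 in NAC, set the lower sum in NAC, where Slc1a3, Olig2 and Egfr were above control. The 7 neuronal markers summed to 38.4 and 36.3 FPKM in control, 34.0 and 35.1 in PQ, and 65.5 and 59.0 in NAC. Map2 alone set the higher sum in NAC, while Tubb3 was below control in both treatments, with 2.38 and 1.30 FPKM in control, 0.72 and 0.47 in PQ, and 0.32 and 0.44 in NAC. Syt1 had 0.17 and 0.23 FPKM in control, 0.26 in each PQ library, and 0.06 and 0.11 in NAC. The 6 astrocyte markers, all above 1 FPKM in the mean, summed to 136 and 132 FPKM in control, 165 and 176 in PQ, and 113 and 112 in NAC. Gja1, at 128 and 124 FPKM in control and 97.7 and 96.0 in NAC, set the lower sum, while Gfap, Aqp4, S100b and Slc1a2 were above control in NAC. Of 7 oligodendrocyte markers, 2 passed 1 FPKM in the mean, Pdgfra was the most abundant and Mog and Mag were at 0. Their sum was 10.7 and 11.9 FPKM in control, 11.1 and 11.4 in PQ, and 14.2 and 16.3 in NAC, with Pdgfra higher and Cspg4 lower in NAC. The 7 microglial markers summed to 2.07 and 1.93 FPKM in control, 3.09 and 3.14 in PQ, and 4.59 and 3.64 in NAC, mostly P2ry12. The part of these cell types in the values of Txnip, Txn1, Arrdc3 and Arrdc4 was not tested.

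Of the reductases in the set, Txnrd2 was lowest in PQ and Txnrd3 in NAC. Txnrd2 (NCBI gene 26462), the mitochondrial reductase, had 8.12 and 8.49 CPM in control, 6.78 and 5.22 in PQ, and 7.99 and 7.64 in NAC. PQ was the lowest, yet the log2 fold change of -0.46 (standard error 0.21) did not pass the threshold. It was -0.25 in the NucleoSpin and -0.68 in the BGISEQ-500 libraries. Txnrd2 gave -0.09 (standard error 0.20) in NAC against control and -0.38 (standard error 0.21) in PQ against NAC, neither past the threshold. With a library left out, PQ against control ran from -0.67 to -0.29, NAC against control from -0.12 to -0.05 and PQ against NAC from -0.58 to -0.20. Txnrd3 (NCBI gene 232223), the thioredoxin-glutathione reductase best known from testis, had 10.7 and 10.2 CPM in control, 9.07 and 10.1 in PQ, and 6.87 and 7.54 in NAC. The NAC libraries were the lowest. Its log2 fold change in NAC against control was -0.54 (standard error 0.18). It passed the threshold, but the call was kept under 2 of the 13 alternatives and lost without any single library, with values from -0.61 to -0.47. The protocol as a covariate gave -0.56 and DESeq2 -0.54, neither past the threshold. Within the BGISEQ-500 libraries the NAC libraries lay -0.56 and -0.43 from control. PQ gave -0.13 (standard error 0.18) against control and 0.41 (standard error 0.19) against NAC, also short of the threshold, and the former ran from -0.21 to -0.05 with a library left out. Txnrd1, the cytosolic reductase, completes the family and was not part of the selected set. It belongs to a list of related genes chosen with earlier results of these data known, so its p-values are a description. It had 200 and 204 CPM in control, 264 and 253 in PQ, and 196 and 183 in NAC. Both PQ libraries lay above all others. Txnrd1 rose in PQ against control by 0.35 on the log2 scale (standard error 0.09; edgeR, adjusted p = 0.0099) and was higher in PQ than in NAC by 0.45 (standard error 0.09; edgeR, adjusted p = 0.00092). PQ lay 0.40 above control in the NucleoSpin libraries and 0.31 above it in the BGISEQ-500 libraries. The call against control was lost without PQ library 1, at 0.32.

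Of the Mondo factors and their partner, Mlx was highest in PQ, whereas the groups overlapped for Mlxip. These genes were chosen with such differences in view, so their calls are a description. Mlx (NCBI gene 21428), the shared dimerization partner, had 26.5 and 29.9 CPM in control, 39.1 and 37.1 in PQ, and 29.1 in each NAC library. The PQ libraries were the highest, and NAC lay between the control libraries. Mlx rose in PQ against control by a log2 fold change of 0.43 (standard error 0.12). It was higher in PQ than in NAC by 0.39 (standard error 0.12), and both values lay past the threshold. NAC against control gave 0.04 (standard error 0.12), and turned to -0.04 without control library 1. PQ lay 0.55 above control in the NucleoSpin libraries and 0.31 above it in the BGISEQ-500 libraries. The call against control was lost without control library 1 (0.35), PQ library 1 (0.39) or PQ library 2 (0.47). That against NAC was lost with DESeq2 (0.39) and without either PQ or either NAC library (0.35 to 0.43). Mlxip (NCBI gene 208104), the glucose sensor MondoA, had 24.7 and 27.7 CPM in control, 26.9 and 24.3 in PQ, and 27.95 and 26.59 in NAC. The 3 groups overlapped, and no comparison passed the threshold: the log2 fold changes were -0.03 in PQ and 0.06 in NAC against control and -0.09 in PQ against NAC (standard error 0.13 each). The value in PQ turned to 0.06 without control library 2 and 0.04 without PQ library 2, and that in NAC to -0.02 without control library 1. PQ against NAC ran from -0.16 to -0.02 with a library left out. Its expected counts were fractional in all 6 libraries, which happens when reads are shared with other genes, so its level is uncertain; those of the other 9 genes were whole. Mlxipl (NCBI gene 58805), the Mondo factor of liver and fat, had 3 and 5 expected counts in control, 0 and 4 in PQ, and 2 and 5 in NAC. It did not pass the filter on low values and was not tested.

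The levels of the genes were compared by FPKM, which takes transcript length into account. In control, mean FPKM was 156 ± 0.93 for Txn1, 63.8 ± 3.25 for Txn2, 22.0 ± 2.67 for Arrdc3, 15.0 ± 1.34 for Mlx and 7.98 ± 0.44 for Arrdc4 (SD, n = 2). Txnip at 5.62 ± 1.52, Mlxip at 5.03 ± 0.57, Txnrd2 at 4.25 ± 0.17 and Txnrd3 at 3.61 ± 0.10 followed (SD, n = 2), and Mlxipl was at 0.11. Txnip, Mlxip and Txnrd2 did not differ beyond the spread of the control libraries of Txnip, while the steps among the higher genes exceeded theirs. In PQ, Txnip was at 0.75 and 0.81 FPKM, below Txnrd2 at 3.57 and 2.70 and Txnrd3 at 3.21 and 3.52, and was the lowest of the 9 tested genes. It passed the filter on low values through its control and NAC libraries. The ratio of Txn1 to Txnip in FPKM was 23.5 and 34.3 in control, 218 and 205 in PQ, and 37.4 and 36.1 in NAC. The PQ libraries stood far above the others, and NAC lay just above control.

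**Figure D3:**
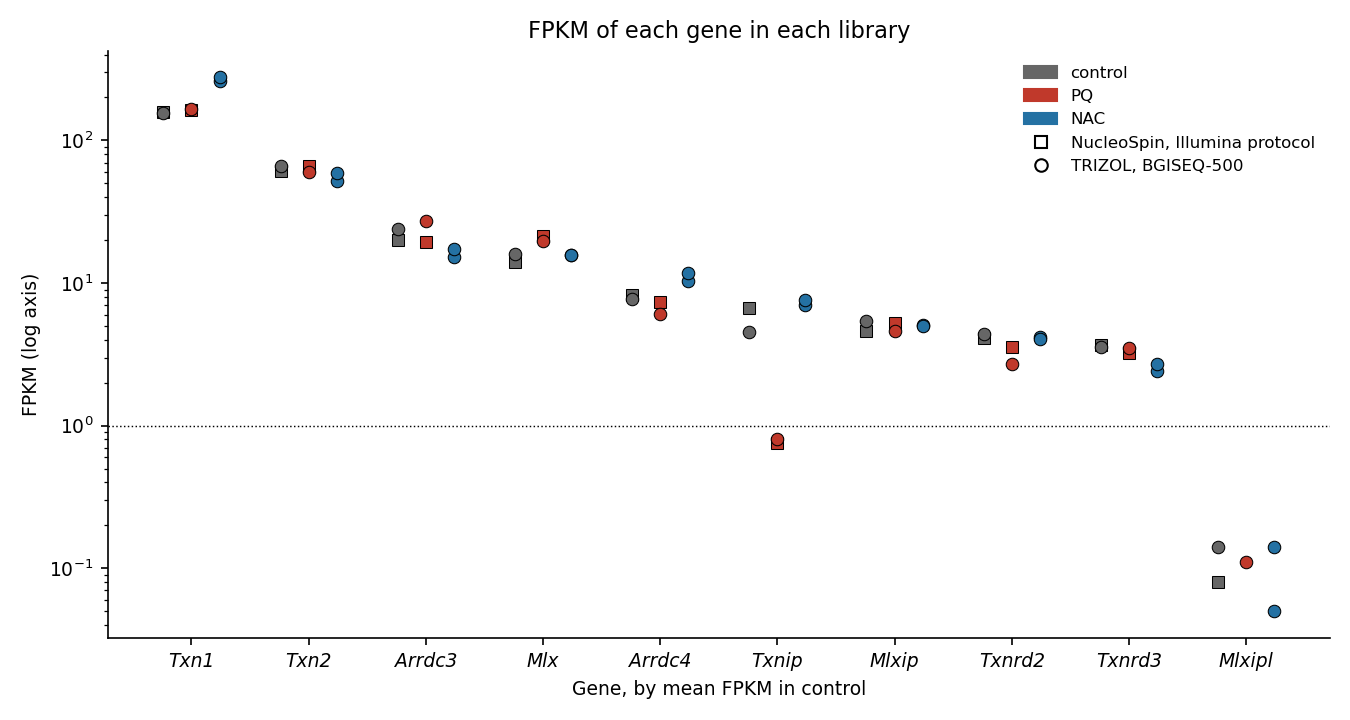
FPKM of the 10 genes in each library on a log axis, ordered by the mean in control, with groups by colour and labelled protocol by shape; the dotted line is 1 FPKM, the minimum mean for testing. Txn1 is the highest in every library, Txnip falls below 1 FPKM in PQ only, and the PQ library of Mlxipl with 0 counts is not drawn.

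As a description, 2 of the 9 tested genes lay past the threshold of an adjusted p of 0.05 in PQ against control, Mlx higher and Txnip lower. Over all 11717 tested genes, 19.2% passed, with 9.76% higher and 9.45% lower. In NAC against control, Arrdc4 and Txn1 were higher and Arrdc3 and Txnrd3 lower, where 18.7% of all tested genes passed, 9.01% higher and 9.64% lower. Between PQ and NAC, Arrdc3 and Mlx were higher in PQ and Txnip, Arrdc4 and Txn1 lower, where 31.6% of all tested genes passed, 16.0% higher and 15.7% lower. The genes were selected on these differences, so their calls test nothing, and nothing is read from their counts beside the background. The calls of Mlx, Arrdc3 and Txnrd3 were lost without some libraries, as given with each gene. The 3 comparisons share libraries, and each is given with its own values. In number of genes, 2250 passed in PQ against control (866 without PQ library 1), 2186 in NAC against control (1286 without NAC library 1 and 1427 without NAC library 2) and 3708 in PQ against NAC (2343 without PQ library 1 and 2407 without NAC library 1). The plot of log2 fold changes with their standard errors shows Txnip apart from the other genes in both comparisons with PQ.

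**Figure D4:**
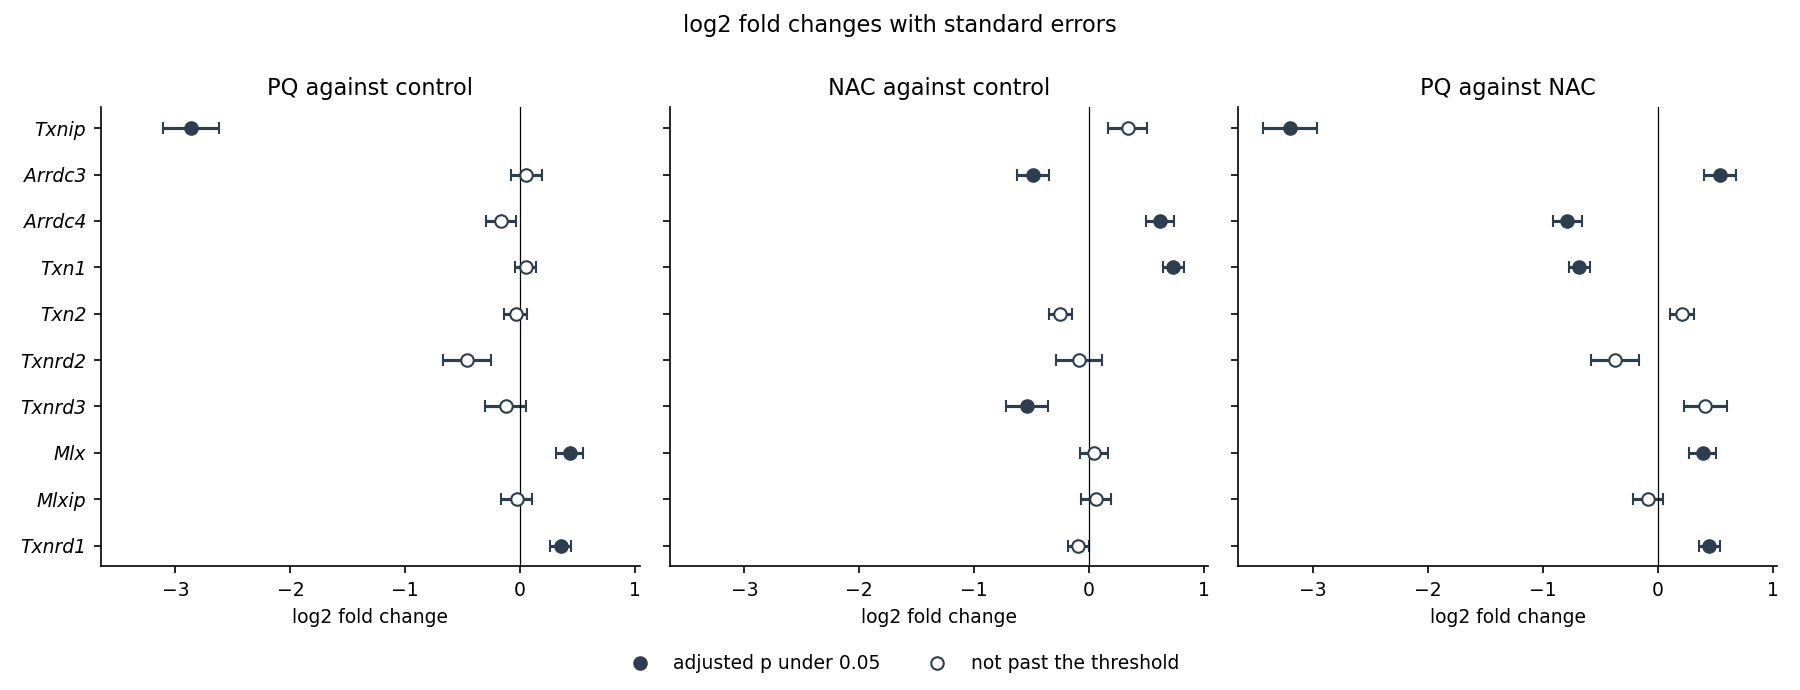
log2 fold changes with standard errors (bars) of the 9 tested genes and Txnrd1 in the 3 comparisons, from edgeR; filled points passed an adjusted p of 0.05. Txnip is the farthest from 0 in PQ against control (-2.87) and PQ against NAC (-3.20), and Txn1 in NAC against control (0.74).

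The genes most like Txnip and Arrdc4 were named by Pearson's r of log2 CPM over the 6 libraries. The libraries fall into 3 groups, so r mainly follows the group means, and it is given as a description. The highest r with Txnip were those of Dus4l (0.997), Bard1 (0.996), Jade1 (0.996), Kif4 (0.995) and Neat1 (0.995), and the lowest those of Plcg2 (-0.995), Psrc1 (-0.994), Rnf169 (-0.994), Il4ra (-0.993) and Manba (-0.993). Of the 5 most like Txnip, none had as large a log2 fold change in PQ against control: Neat1 had the largest, at -1.23, and Dus4l had -0.70. For Arrdc4 the highest were Chst2 (0.994), Rpgrip1 (0.993), Vsig10 (0.990), Rab23 (0.990) and Ppp1r9a (0.989). Within the set, r with Txnip was -0.97 for Mlx, 0.82 for Txnrd2, 0.74 for Arrdc4, 0.54 for Txn1, -0.53 for Arrdc3, -0.42 for Txn2, -0.36 for Txnrd3 and 0.30 for Mlxip. With Arrdc4 it was 0.95 for Txn1, -0.829 for Txnrd3, -0.827 for Arrdc3, -0.75 for Txn2, -0.59 for Mlx, 0.46 for Txnrd2 and 0.37 for Mlxip.

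Related genes were taken from 7 lists with 91 genes, of which 78 were tested. In all, 12 were higher and 8 lower in PQ against control (3 and 4 without PQ library 1, and 7 higher without PQ library 2). In NAC against control 8 were higher and 9 lower (4 higher without NAC library 1, and 5 higher without control library 1 or NAC library 2, with the protocol as a covariate or with DESeq2; 5 lower with limma). In PQ against NAC 18 were higher and 6 lower (10 higher without PQ library 2). Over all tested genes, the background for these counts and those of each list below, 9.76% were higher and 9.45% lower in PQ against control, 9.01% and 9.64% in NAC against control, and 16.0% and 15.7% in PQ against NAC. The median log2 fold change of all tested genes was -0.001, -0.002 and 0.0 in these comparisons. Counts of single lists are small: of 546 such counts under the alternatives, 100 moved by more than 1.5 times, and those that moved with a library left out are given in brackets. Of the 61 calls, 28 were kept under all 13 alternatives. The calls named below, apart from those of Arrb1 against control and of Thrsp, were picked from these after their values were seen. The lists were chosen with earlier results of these data known, so the p-values of their genes are a description. In each named call, both libraries of a group lay on the same side of the other group. That also held in every comparison for Txnl4a, Insr and Khk, which passed in none, so it adds no support.

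Of 21 genes with a thioredoxin fold or acting on such proteins, 4 were higher in PQ against control (2 without PQ library 1) and 2 lower (1 without control library 1 or either PQ library), with a median of 0.06. In NAC against control 1 was higher and 2 lower (1 lower without NAC library 1), median -0.09, and in PQ against NAC 6 were higher and 1 lower, median 0.03. Srxn1, sulfiredoxin, which repairs overoxidized peroxiredoxins, rose in PQ against control by 0.73 (adjusted p = 0.00022, edgeR). Of 13 thioredoxin clients, 2 were higher in PQ against control (0 without any of the control or PQ libraries, 1 without either NAC library) and 2 lower, median 0.02. NAC against control had 2 higher (1 without control library 1, 0 without NAC library 1) and 2 lower (0 without control library 1, 1 without any other library), median 0.05. In PQ against NAC 1 was higher (0 without PQ library 2 or NAC library 1) and 2 lower (1 without either PQ library or NAC library 1), median -0.11. Rrm1 and Rrm2, subunits of ribonucleotide reductase, fell in PQ against control by log2 fold changes of -0.52 and -0.59 (adjusted p = 0.00046 and 0.00017, edgeR). Rrm2b, a further subunit, gave -0.19 there, short of the threshold.

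Of 8 genes outside the set listed with the arrestins, Vps26a, Vps26b and Vps26c among them, 7 were tested. Arrb1 alone passed, in each of the 3 comparisons. It was higher in PQ than in control by 0.37 (adjusted p = 0.044, edgeR; lost without control library 1 or either PQ library, with DESeq2 and with both limma fits), lower in NAC than in control, at -0.49 (adjusted p = 0.012, edgeR; lost without control library 2 or NAC library 1 and with both limma fits), and higher in PQ than in NAC by 0.86 (adjusted p = 4.6e-05, edgeR). In PQ against NAC the count of 1 was 2 without either control library and 3 without NAC library 2. The medians were 0.18, -0.13 and 0.08. Of 9 tested NEDD4-type ligases and adaptors, out of 11, 1 was higher in PQ against control (0 without control library 2 or either PQ library), median 0.01. With edgeR 0 passed in NAC against control, 0 also at an unadjusted p under 0.05, median -0.05. In PQ against NAC 2 were higher (1 without PQ library 1, 0 without PQ library 2 or NAC library 1), median 0.14.

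Of 8 tested Txnip partners, out of 13, 2 were higher in PQ against control (1 without PQ library 1) and 1 lower (2 without control library 1, 0 without PQ library 1), median 0.06. In NAC against control 1 was higher (0 without any library other than control library 2) and 3 lower, median -0.21, and 5 were higher in PQ than in NAC, median 0.62. Slc2a1 and Slc2a3, the glucose transporters, fell in NAC against control by log2 fold changes of -0.63 and -1.31 (adjusted p = 0.00075 and 1.1e-06, edgeR). In PQ against control they gave 0.03 and -0.23, neither past the threshold. The largest change of the list was that of Ddit4 in NAC against control, at -1.53, and of Casp1 in PQ against control, at 1.23. Of 11 tested Mondo targets, out of 15, 1 was higher in PQ against control (2 without control library 1 or PQ library 2, 0 without PQ library 1) and 3 lower (1 without PQ library 1), median 0.11. Against control, NAC had 1 higher (2 without control library 2) and 1 lower (3 without control library 1), median -0.14. In PQ against NAC 3 were higher (1 without PQ library 2 or NAC library 1) and 1 lower (2 without PQ library 1), median 0.21. Hk2, hexokinase, fell in PQ by -0.60 (adjusted p = 0.0011, edgeR) and in NAC by -1.001 (adjusted p = 5.5e-06, edgeR). Gpd1, glycerol-3-phosphate dehydrogenase, went the other way in NAC and rose by 0.53 (adjusted p = 0.0047, edgeR). Klf10 was lower in PQ than in NAC by -0.78 (adjusted p = 3.5e-05, edgeR). Thrsp went the other way and was higher in PQ than in control by 0.72 (adjusted p = 0.0083, edgeR). It was also higher in PQ than in NAC by 0.74 (adjusted p = 0.0036, edgeR). Both calls of Thrsp were lost without PQ library 1. Of 9 tested genes of the MYC-MAX network, out of 10, which bind E-box letters, 1 was higher in PQ against control (0 without control library 1 or either PQ library), median 0.04. There were 3 higher in NAC against control (1 without NAC library 2), median 0.24, and 2 were lower in PQ than in NAC, median -0.12. Myc rose in NAC by 0.71 (adjusted p = 4.1e-05, edgeR).

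**Figure D5:**
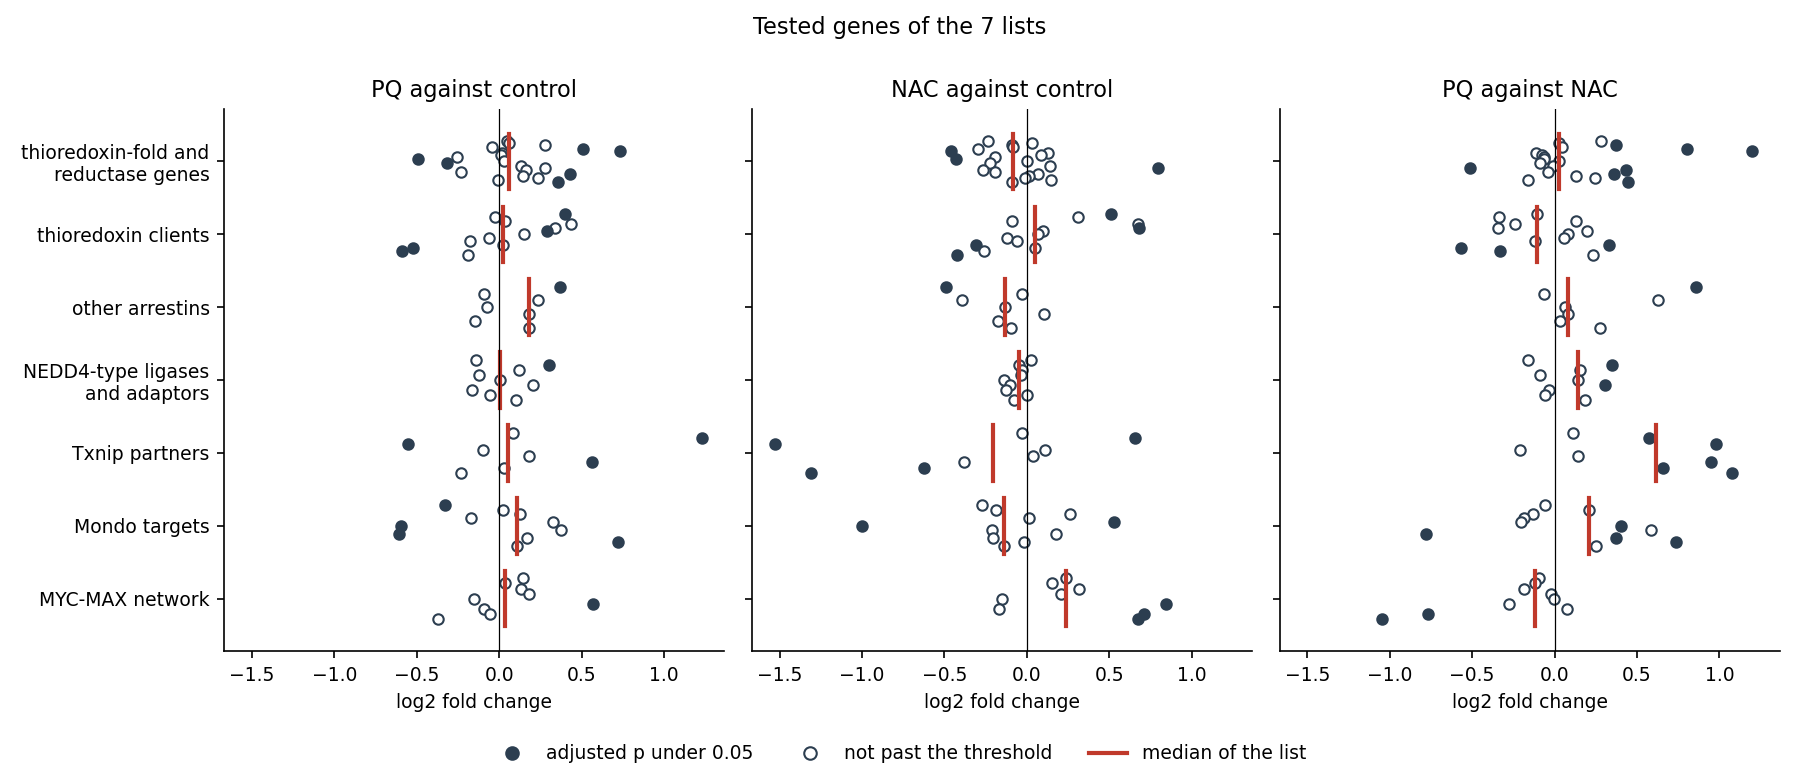
log2 fold changes of the tested genes of the 7 lists in the 3 comparisons; filled points passed an adjusted p of 0.05 (edgeR) and the bar is the median of a list. The Txnip partners have the highest median in PQ against NAC (0.62).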

How the data were processed

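RNA-seq was analysed in 6 libraries, 2 each of control, PQ and NAC, grouped by the sample labels. Per gene, the authors deposited an expected count, which need not be a whole number, and FPKM, scaled by the authors. Per the labels, control library 1 and PQ library 1 were processed with TopHat2 2.0.11 and Cufflinks 2.1.1 (mm9), and the others with HISAT2 2.0.4, Bowtie2 2.2.5 and RSEM (mm10), yet all tables have RSEM-type columns. Genes missing from a table were taken as 0. NCBI identifiers matched symbols for 99.7% of 17254 genes.

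Rounded expected counts were tested with edgeR 4.0.16 in R 4.3.3 (TMM, quasi-likelihood, all 6 libraries together, no covariates). The 11717 genes whose mean FPKM reached 1 were tested, with Benjamini-Hochberg adjustment at 0.05. Standard errors were derived from the log2 fold change and the F statistic. Differences within a protocol are of log2 CPM. Replicates differed by more than sampling noise (chi-square per degree of freedom 4.34 to 7.30). The code was tested on simulated counts. The 13 alternatives were scaling by DESeq2's factors, no low-value filter, a covariate for the labelled protocol, a fit on 4 libraries, leaving out each library in turn, DESeq2 1.42.0, and limma 3.58.1 on log2(FPKM + 1) and log2(FPKM + 0.1). The last was chosen for the 9 tested genes after seeing the data. Besides the set, the rule for named genes takes Txnrd1, Cdkn2a, up to 4 genes past the threshold per list and comparison, the 5 genes most like and the 5 least like Txnip, and the 5 most like Arrdc4. The members and lists were chosen with earlier results of these data known.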

Additional observations from a re-analysis of the deposited data

How the results depend on the processing

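Of 351 log2 fold changes of the 9 tested genes under the 13 alternatives, 317 kept their direction and side of the threshold, 25 lost the threshold, 1 gained it and 8 turned, all of the last short of the threshold. Where a library was left out, the lone library of its group was assumed to vary like the other groups. With a library left out, Txnip ranged from -3.13 to -2.55 in PQ against control and -3.27 to -3.14 in PQ against NAC, and with limma on log2(FPKM + 1) it was -1.87 and -2.22. With a library left out, Txnip in NAC against control ranged from 0.0763 to 0.650, Arrdc3 from -0.23 to 0.29 in PQ against control, -0.60 to -0.36 in NAC against control and 0.26 to 0.78 in PQ against NAC, and Txnrd3 in NAC against control from -0.61 to -0.47. Mlx ranged from 0.35 to 0.52 in PQ against control, -0.0414 to 0.131 in NAC against control and 0.35 to 0.43 in PQ against NAC. Txn2 in PQ against control ranged from -0.0974 to 0.0173, and Mlxip from -0.110 to 0.0564 in PQ and -0.0216 to 0.145 in NAC against control. Txnrd2 ranged from -0.67 to -0.29 in PQ against control and -0.58 to -0.20 in PQ against NAC. The call of Arrdc3 in NAC against control was lost with limma on log2(FPKM + 1) (-0.41) and log2(FPKM + 0.1) (-0.43), that of Txnrd3 with the protocol as a covariate (-0.56), only the 4 libraries compared (-0.54), DESeq2 (-0.54) and both limma fits (-0.37 and -0.48), and that of Mlx in PQ against NAC with DESeq2 (0.39). The genes changed numbered 866 to 2206 in PQ against control, 1286 to 2126 in NAC against control and 2343 to 4207 in PQ against NAC with a library left out. Of the 7 lists, 3 to 11 genes were then higher and 4 to 9 lower in PQ against control, 4 to 10 higher in NAC against control and 10 to 20 higher in PQ against NAC. In NAC against control, 5 were higher with the protocol as a covariate and 5 with DESeq2, and 5 were lower with each limma fit. The cause of these shifts was not tested. Of 546 counts of single lists, 100 moved by more than 1.5 times. The labels give same-numbered libraries no shared source, but in PQ against control the numbers coincide with the labelled protocol. With the protocol as a covariate, the call of Txnrd3 was the only call of the 9 genes lost.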
